A study of Mus musculus with 6 samples.

Results

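Fatty acid oxidation and the targets of the nuclear receptor PPARA were examined in AML12 cells through 33 mouse genes named for these functions and matched to the files by gene identifier. Of these, 31 were found among the 23886 identifiers listed, and Cyp4a10 and Cyp4a14, microsomal fatty acid omega-hydroxylases, matched no row and were not analysed here. AML12 is a hepatocyte line established from a mouse that carried a human transforming growth factor alpha transgene, so control and exposed cells share that background. Poly(A) RNA was sequenced in 3 Control libraries, whose treatment is labelled None and which are numbered 2, 3 and 4, and in 3 SMF libraries, from cells under a static magnetic field, numbered 1, 2 and 3. The sources used here do not state how strong the field was or how long it was applied, and the labels do not say whether the libraries came from separate cultures. The p-values below therefore measure the spread between these libraries, which may be technical. The title of the series names cellular respiration, and fatty acid oxidation is one of the pathways that feed it.

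Long-chain fatty acids are activated to acyl-CoA esters and carried into mitochondria by the carnitine shuttle. There, repeated rounds of dehydrogenation, hydration, a further dehydrogenation and thiolytic cleavage release acetyl-CoA and pass electrons to the respiratory chain. Peroxisomes run a parallel chain that shortens very long and branched fatty acids and whose oxidases yield hydrogen peroxide. PPARA is activated by fatty acids and, paired with a retinoid X receptor, drives much of both chains in liver during fasting.

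Values are FPKM, fragments per kilobase of exon scaled to the library total. Levels are per length, and the order of genes depends on the length used, so a level per kilobase of principal transcript is given where it matters. Library totals, inferred here from the FPKM and exon lengths, ran from 15514530 to 18200516 reads. Of each total, 99.9996% to 99.9999% lay in listed genes, so the totals do not give the sequencing depth. On this basis 1 read in a gene of 1 kilobase was worth 0.0549 to 0.0645 FPKM. Genes with at least 1 FPKM in at least 3 libraries were tested with limma on log2(FPKM + 1), two-sided, with Benjamini-Hochberg adjustment over the 11114 genes tested. At an adjusted threshold of 0.05, limma called 0 genes higher (0.0%) and 0 lower (0.0%), and limma-voom on reads recovered from the FPKM called 242 higher (2.18%) and 268 lower (2.41%). Fold changes are SMF minus Control on the log2(FPKM + 1) scale, which understates differences of low genes.

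Of 15 hepatocyte markers, 7 reached the tested range, among them Alb (albumin) at 26.2 to 34.1 FPKM, Hnf4a (a hepatocyte transcription factor) at 87.0 to 95.5 FPKM and Krt8 (keratin 8) at 1871 to 2088 FPKM. Cps1, the first enzyme of the urea cycle, and Apoa2, a plasma apolipoprotein, were under 0.1 FPKM in every library, and 6 others, including Apoa1 and Tat, stayed under 1 FPKM. Of 6 cholangiocyte markers 5 were in the tested range, with Krt19 (keratin 19) at 1024 to 1163 FPKM and Spp1 (osteopontin) at 826 to 917 FPKM. The remaining marker, Epcam, had 1 read over all 6 libraries. The label hepatocyte line is thus met by part of the marker list, and bile duct keratin RNA was abundant in all 6 libraries.

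Of the 31 listed members, 27 were tested, Pdk4 and Acaa1b were under 0.1 FPKM in every library, and Ppara and Etfb were under 1 FPKM in every library. No tested member passed the limma threshold in either direction, and the smallest adjusted p among members was 0.164, for Acot1. By limma-voom 1 of the 27 members, also Acot1, passed as higher (3.7%, against 2.18% of all genes tested) and 0 as lower (against 2.41%). At an unadjusted p under 0.05, 4 members were higher in SMF (14.8% of 27, against 9.41% of all genes tested) and 1 was lower (3.7%, against 8.57%). The groups did not overlap, with SMF higher, for 3 members (11.1%, against 11.0% of all genes) and, with SMF lower, for 2 members (7.41%, against 12.7%). The fold was above 0 for 16 members and below 0 for 11, with a median of 0.020, and over all genes tested it was above 0 for 46.7% with a median of -0.0095. The 95% confidence intervals of the members' folds lay between -0.51 and 0.30. With 1 library left out, the fold moved by over 1.5 times for 20 of the 27 members, and by less for Acaa1a, Acaa2, Acot1, Acox3, Eci1, Eci2 and Vnn1. In bulk RNA, fewer cells of a kind and less RNA per cell cannot be told apart.

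**Figure D1:**
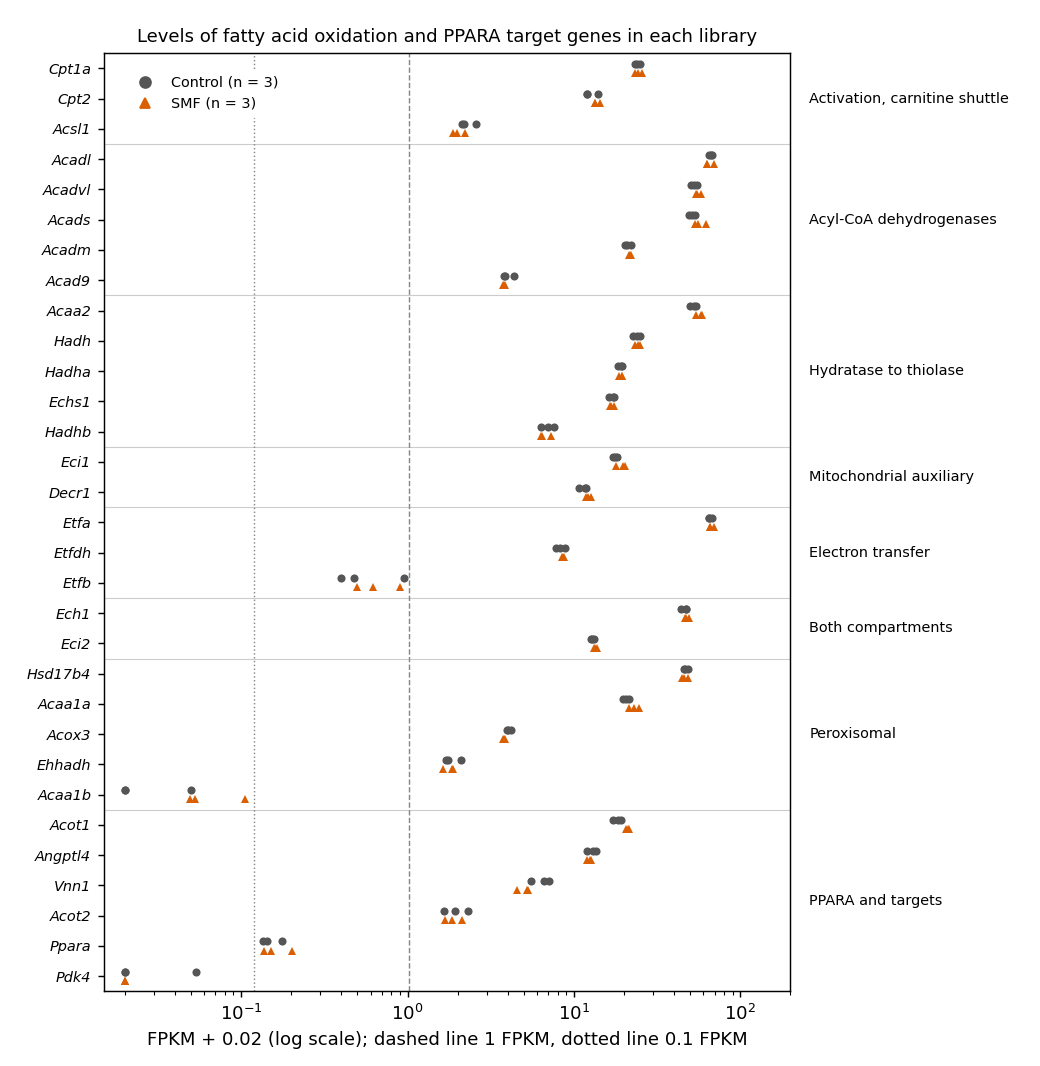
FPKM of each listed member in each library, on a log axis after adding 0.02, grouped by role, with circles for Control and triangles for SMF. Most members sit above 1 FPKM (dashed line) with both groups together, while Etfb, Ppara, Acaa1b and Pdk4 sit below it, the last pair also below 0.1 FPKM (dotted line).

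Carnitine palmitoyltransferase 1a (Cpt1a, ENSMUSG00000024900), the liver form of the enzyme that commits fatty acids to the mitochondrion, was measured at 23.3, 24.8 and 23.8 FPKM in Control 2, 3 and 4 and at 24.2, 25.8 and 23.3 FPKM in SMF 1, 2 and 3. The groups overlapped throughout, and the difference was 0.025 ± 0.049 (SE; limma adjusted p = 0.805), with a 95% interval from -0.087 to 0.14. Cpt2, which rebuilds the acyl-CoA on the inner side, was at 12.6 ± 1.16 FPKM in Control and 13.7 ± 0.456 in SMF (SD, n = 3 each). The activating ligase Acsl1, the main long-chain acyl-CoA synthetase of liver, was low at 1.86 to 2.55 FPKM over the 6 libraries. Per kilobase of principal transcript it was at 5.00 to 6.87. The related ligase Acsl5, outside the 33 genes, was at 174 to 186 FPKM and Acsl3 at 60.0 to 65.2 FPKM. Acsl1 has 10483 exon bases against 3897 in its principal transcript, and Acsl5 4864 against 4243, so FPKM widens their gap. The muscle form Cpt1b read 0.099 to 0.325 FPKM, but 94.8% of its principal transcript lies within a same-strand locus, Gm44502, so its count is uncertain. The brain form Cpt1c had 7 reads over all 6 libraries.

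Of the acyl-CoA dehydrogenases, which open each round and differ in preferred chain length, the highest was the long-chain Acadl. It read 67.3, 64.9 and 67.0 FPKM in Control 2, 3 and 4 and 62.6, 69.1 and 62.8 FPKM in SMF 1, 2 and 3, with overlapping groups and a fold of -0.035 ± 0.046, which was -0.011 without SMF 1 and -0.081 without SMF 2. In level it stood at the 93.2 percentile of genes tested. The short-chain Acads was measured at 51.1, 53.6 and 49.1 FPKM in Control and at 61.8, 53.2 and 55.3 FPKM in SMF, with SMF 1 highest and SMF 2 inside the Control range. Its fold of 0.14 ± 0.060 had an unadjusted p of 0.0446 and a limma adjusted p of 0.267, and was 0.081 without SMF 1 and 0.043 after a GC content and length correction. Acadvl, the very-long-chain enzyme, was at 50.6 to 57.8 FPKM, although 42.9% of its exon bases are shared with Dvl2 on the other strand, itself at 9.46 to 11.8 FPKM. The medium-chain Acadm lay lower at 20.2 to 22.1 FPKM, and Acad9, which also serves complex I assembly, lowest at 3.72 to 4.33 FPKM.

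Among the enzymes of the later steps, the mitochondrial thiolase Acaa2 was the highest by FPKM. It was measured at 52.4, 53.8 and 50.1 FPKM in Control 2, 3 and 4 and at 58.4, 54.5 and 58.6 FPKM in SMF 1, 2 and 3. Every SMF library was above every Control library, with SMF 2 closest to the Control range. The fold was 0.13 ± 0.044 (95% interval 0.029 to 0.23), with a limma adjusted p of 0.208 that ranged from 0.0961 to 0.647 over the alternatives. Corrected for GC content and length it was 0.063. Hadh, the hydroxyacyl-CoA dehydrogenase for shorter chains, was at 22.6 to 25.1 FPKM and the hydratase Echs1 at 16.2 to 17.5 FPKM, with fold changes of 0.020 and -0.0071. The trifunctional protein, whose subunits join in 1 complex, had 2.54 to 3.09 times more Hadha than Hadhb RNA by FPKM, and 1.71 to 2.08 times more per kilobase of principal transcript. In Hadhb, 19.7% of 50-base stretches recur elsewhere, so part of its reads may be assigned to a copy or set aside.

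The auxiliary enzymes move or remove double bonds that the main chain cannot handle. Eci1, an enoyl-CoA isomerase, was at 17.7, 17.2 and 18.1 FPKM in Control and 19.8, 17.9 and 20.3 FPKM in SMF, where SMF 2 lay within the Control range (fold 0.12 ± 0.054, limma adjusted p = 0.288). Decr1, the dienoyl-CoA reductase, was at 11.4 ± 0.653 FPKM in Control and 12.2 ± 0.44 in SMF. Ech1, a dienoyl-CoA isomerase found in both organelles, was at 47.2, 47.3 and 43.9 FPKM in Control and 49.0, 46.6 and 47.3 FPKM in SMF, and the groups overlapped. Eci2, an enoyl-CoA isomerase of both organelles, was lower. Control 2, 3 and 4 read 12.86, 12.71 and 13.18 FPKM and SMF 1, 2 and 3 read 13.19, 13.37 and 13.83 FPKM for this gene. These groups did not overlap, but Control 4 and SMF 1 were nearly equal, and the limma adjusted p was 0.518.

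Electrons from all the acyl-CoA dehydrogenases pass through the electron transfer flavoprotein, a pair of the subunits Etfa and Etfb, to the membrane enzyme Etfdh. Etfa had the highest mean FPKM of all members over the 6 libraries, close to Acadl, which was higher in Control 2 and SMF 2. It was at 64.9, 65.2 and 67.8 FPKM in Control and 65.9, 65.4 and 69.5 FPKM in SMF, with overlapping groups and a fold of 0.020 ± 0.039. Etfb (ENSMUSG00000004610) was listed at 0.931, 0.378 and 0.454 FPKM in Control and 0.886, 0.597 and 0.478 FPKM in SMF, from 8 to 18 reads a library. Etfa thus exceeded its partner by 69.7 to 173 times within single libraries. Of the 1164 exon bases of Etfb, 617 lie inside a same-strand locus, Gm45233, and these make up 69.1% of its 893-base principal transcript. How the authors treated reads shared by overlapping loci was not given in the sources used here, and its part in the level of Etfb was not tested. Etfdh was at 7.77 to 8.76 FPKM, with a fold of 0.052 that was 0.014 without Control 3, 0.092 without Control 4 and 0.14 after correction for GC content and length.

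Peroxisomal oxidation rested on fewer and more uneven members. Hsd17b4, the bifunctional protein of the branched-chain and very-long-chain route, was highest, at 48.8, 45.6 and 46.3 FPKM in Control and 44.9, 46.0 and 48.7 FPKM in SMF, and the groups overlapped (fold -0.011 ± 0.045). Ehhadh, the other bifunctional protein and a classical PPARA target, was near the lower end of the tested range at 1.61 to 2.06 FPKM. Acox3, an oxidase for branched chains, read 4.15, 3.93 and 3.97 FPKM in Control and 3.81, 3.71 and 3.80 FPKM in SMF. All SMF libraries were below all Control libraries, with a fold of -0.071 ± 0.060 and a limma adjusted p of 0.55.

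The peroxisomal thiolases are a related pair of genes that differed widely in level. Acaa1a was measured at 19.7, 21.4 and 20.5 FPKM in Control and at 24.6, 21.3 and 22.9 FPKM in SMF, with SMF 2 inside the Control range (fold 0.15 ± 0.059, unadjusted p = 0.0334, limma adjusted p = 0.245). Without SMF 1 the fold was 0.10. Acaa1b, prominent in mouse liver, had 0, 0 and 1 reads in Control and 1, 1 and 3 reads in SMF, so only SMF 3 reached 3 reads, a floor worth 0.084 to 0.0986 FPKM. Of the 50-base stretches of Acaa1b, 30.5% recur in other genes, most of all in Acaa1a, so reads of such stretches cannot be placed. The promoter windows of the pair are shown to set the gene in the tested range beside the one at a few reads. They are RefSeq sequences of build GRCm38.p6, 250 bases before to 50 after the start, 5′ to 3′ on the gene's strand, with CG dinucleotides in capitals. Acaa1a lies at chr9:119341044-119341343 on the plus strand and Acaa1b at chr9:119157044-119157343 on the minus strand.
Acaa1a: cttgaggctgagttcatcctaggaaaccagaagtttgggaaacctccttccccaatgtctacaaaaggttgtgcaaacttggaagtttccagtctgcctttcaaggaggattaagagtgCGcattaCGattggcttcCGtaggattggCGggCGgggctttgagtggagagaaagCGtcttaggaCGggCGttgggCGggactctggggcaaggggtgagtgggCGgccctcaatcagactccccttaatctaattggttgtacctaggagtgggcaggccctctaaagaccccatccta
Acaa1b: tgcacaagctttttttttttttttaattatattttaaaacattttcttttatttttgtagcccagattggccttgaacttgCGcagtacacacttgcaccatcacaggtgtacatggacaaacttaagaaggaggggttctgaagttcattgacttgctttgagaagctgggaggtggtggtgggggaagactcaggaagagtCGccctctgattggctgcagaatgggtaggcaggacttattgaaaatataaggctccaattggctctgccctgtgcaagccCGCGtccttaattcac
The first holds 10 CG dinucleotides and the second 4, where the median over all 27025 promoter windows was 7.

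Summed over the 17 mitochondrial members, the level was 455, 458 and 450.2 FPKM in Control 2, 3 and 4 and 474, 467 and 476 FPKM in SMF 1, 2 and 3. All SMF sums were above all Control sums (454 ± 3.91 against 472 ± 5.13, SD, n = 3 each). Acads, Acaa2 and Acadvl made up 13.5 of the 18.0 FPKM between the group means. The summed FPKM of whole libraries was also higher in SMF, at 301951 to 309514 against 298090 to 300004. As a percent of that sum, the mitochondrial members took 0.1521, 0.1526 and 0.1510 in Control and 0.1533, 0.1545 and 0.1550 in SMF. Once corrected for GC content and length, the sums were 454 to 460 FPKM in Control and 465 to 471 in SMF, so the groups remained apart on both scales. No p-value is given for a sum over chosen members.

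The 5 peroxisomal members together gave 74.3, 73.1 and 72.5 FPKM in Control and 75.2, 72.9 and 77.1 FPKM in SMF, which overlapped. Hsd17b4 alone was 59.7% to 65.6% of that sum. The mitochondrial sum was thus 6.20 ± 0.0699 times the peroxisomal one in Control and 6.30 ± 0.111 times in SMF (SD, n = 3 each), and these ratios overlapped between groups. This ratio sets 17 genes, among them Cpt1a, Cpt2, Etfa, Etfb and Etfdh, against 5, so its size depends on the lists. Ech1 and Eci2, found in both organelles, were left out of both sums, at means of 46.9 and 13.2 FPKM. The ratio is therefore no measure of how the cells divide oxidation between the organelles. Among tested members the fold was above 0 for 12 of 16 mitochondrial genes (75.0%, median 0.037) and for 1 of 4 peroxisomal genes (25.0%, median -0.019). Over all genes tested it was above 0 for 46.7%. Both medians lay within 0.05 of the median of all genes, which was -0.0095. Under rescaling to TPM that median of all genes was -0.043 and the mitochondrial and peroxisomal medians were 0.0051 and -0.055.

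These levels depend on the length they are divided by. The deposited FPKM divide by all annotated exon bases of a gene, so a gene with many alternative exons reads low. Per kilobase of principal transcript, Echs1 was 5.32 times higher, at 89.8 on that scale against 16.9 FPKM, which placed it above Etfa at 87.6. Acaa1a read 54.4 on that scale and Hsd17b4 59.2, so their gap was much narrower than by FPKM. The ratio of the compartments was then 5.90 ± 0.0238 in Control and 5.87 ± 0.139 in SMF.

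**Figure D2:**
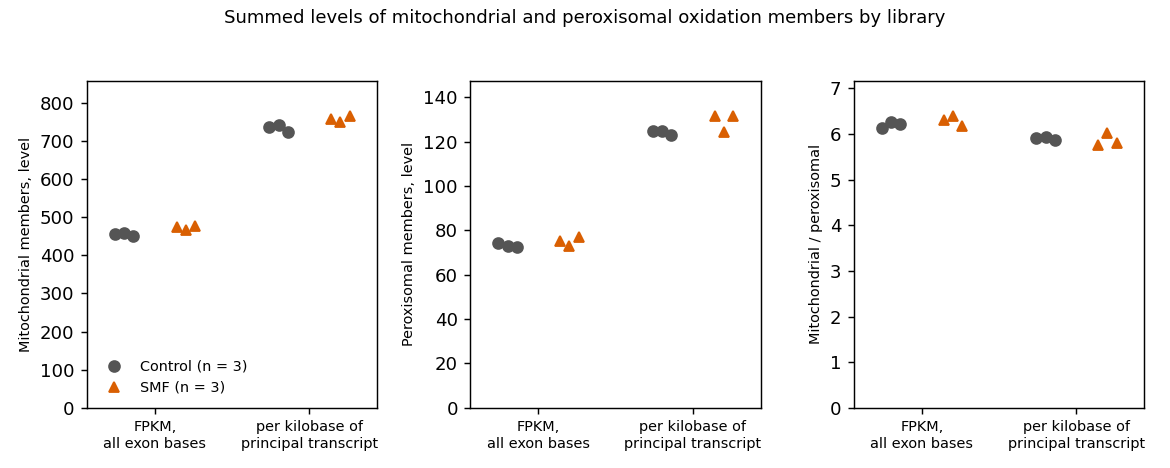
Summed levels of the mitochondrial members (left), of the peroxisomal members (middle) and their ratio (right) in each library, by FPKM and per kilobase of principal transcript. The SMF points of the mitochondrial sum lie above the Control points on both scales, and the ratios, near 6.20 and 6.30 by FPKM, overlap.

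The RNA of the receptor itself was low. Ppara (ENSMUSG00000022383) was listed at 0.157, 0.115 and 0.122 FPKM in Control 2, 3 and 4 and at 0.118, 0.181 and 0.131 FPKM in SMF 1, 2 and 3, with 54 reads over the 6 libraries together. The values of the groups interleaved, and the gene was below the tested range. It was above the 3-read floor of 0.043 to 0.0504 FPKM in each library. Pdk4, the kinase that blocks pyruvate entry and a standard PPARA target in fasting liver, had 2 reads in Control 4 and was listed at 0 in the other 5 libraries. Its floor of 3 reads is worth 0.0469 to 0.0551 FPKM, and no library reached it.

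The promoter windows of this receptor and target are given in the same format, on GRCm38.p6, since both genes had little or no RNA. Ppara lies at chr15:85735526-85735825 on the plus strand and Pdk4 at chr6:5496229-5496528 on the minus strand.
Ppara: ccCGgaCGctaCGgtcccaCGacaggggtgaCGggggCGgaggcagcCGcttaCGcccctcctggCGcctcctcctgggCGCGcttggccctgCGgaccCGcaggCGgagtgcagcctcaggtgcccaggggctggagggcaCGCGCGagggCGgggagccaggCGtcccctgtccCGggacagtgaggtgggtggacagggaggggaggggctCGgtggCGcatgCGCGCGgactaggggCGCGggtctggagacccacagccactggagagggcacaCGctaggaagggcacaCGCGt
Pdk4: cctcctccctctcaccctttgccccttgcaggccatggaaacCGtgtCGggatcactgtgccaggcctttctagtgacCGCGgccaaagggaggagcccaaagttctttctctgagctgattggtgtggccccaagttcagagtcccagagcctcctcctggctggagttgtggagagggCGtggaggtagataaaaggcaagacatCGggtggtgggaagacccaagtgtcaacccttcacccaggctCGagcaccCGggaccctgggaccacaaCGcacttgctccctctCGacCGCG
Ppara holds 30 CG dinucleotides and Pdk4 12. Of the 31 listed members, 25 had a window, and the 21 with at least 1 FPKM had a median of 17 (9 to 34), against 21 for the 8559 windows of all such genes and 7 for the 2624 windows of genes under 0.1 FPKM in every library. The direct repeat bound by PPARA and its partner, 2 copies of AGGTCA in 1 direction with any 1 base between them, was searched on both strands. It was found in none of the 25 windows and in 0.0444% of all windows. Its single unit AGGTCA, which the repeat contains, was found on either strand in 4 of the 25 (16.0%), those of Acadvl, Cpt1a, Acadm and Echs1, and in 16.0% of all windows. A missing match says only that these letters are not in the window.

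Among the other PPARA targets of the list, Acot1, Angptl4, Vnn1 and Acot2 were in the tested range. Acot1 (ENSMUSG00000072949), a cytosolic thioesterase that frees fatty acids from CoA, was measured at 17.3, 19.2 and 18.5 FPKM in Control and at 21.2, 20.7 and 21.4 FPKM in SMF. Every SMF library was above every Control library. The group means were 18.3 ± 0.988 and 21.1 ± 0.361 FPKM (SD, n = 3 each), a ratio of 1.15, and the fold was 0.19 ± 0.048 (95% interval 0.081 to 0.30). Its limma adjusted p of 0.164 missed the threshold, while limma-voom on recovered reads gave 0.0468. Acot1 was the only member passing in that fit, where 2.18% of all genes tested passed as higher. The range of its adjusted p over all alternatives was 0.0468 to 0.454. The mitochondrial paralogue Acot2 was at 2.28, 1.63 and 1.90 FPKM in Control and 2.11, 1.66 and 1.82 FPKM in SMF, with overlapping groups. Acot1 exceeded it 7.59 to 12.4 times by FPKM and 13.1 to 21.5 times per kilobase of principal transcript. Of the 50-base stretches of Acot1 and Acot2, 19.2% and 27.7% recur in other genes, most of all in each other, so both levels are uncertain.

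Vnn1 (ENSMUSG00000037440), a pantetheinase that releases a building block of CoA and a PPARA target in liver, had the widest difference among tested members. It was measured at 6.63, 7.03 and 5.54 FPKM in Control and at 4.54, 5.17 and 5.25 FPKM in SMF. All SMF libraries were below all Control libraries, with Control 4 closest to them. The means were 6.40 ± 0.77 and 4.99 ± 0.393 FPKM (SD, n = 3 each), a ratio of 0.779, and the fold was -0.30 ± 0.089 (95% interval -0.51 to -0.098). Its unadjusted p was 0.00907 and its limma adjusted p 0.176, between 0.095 and 0.413 over the alternatives. Angptl4, a secreted inhibitor of lipoprotein lipase, was at 13.5, 13.0 and 12.0 FPKM in Control and 12.7, 12.0 and 12.5 FPKM in SMF, and the groups overlapped (fold -0.044 ± 0.054). That fold was -0.0088 without Control 2, -0.088 without Control 4 and -0.10 with a block on replicate number. Such a block compares only the libraries numbered 2 and 3.

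**Figure D3:**
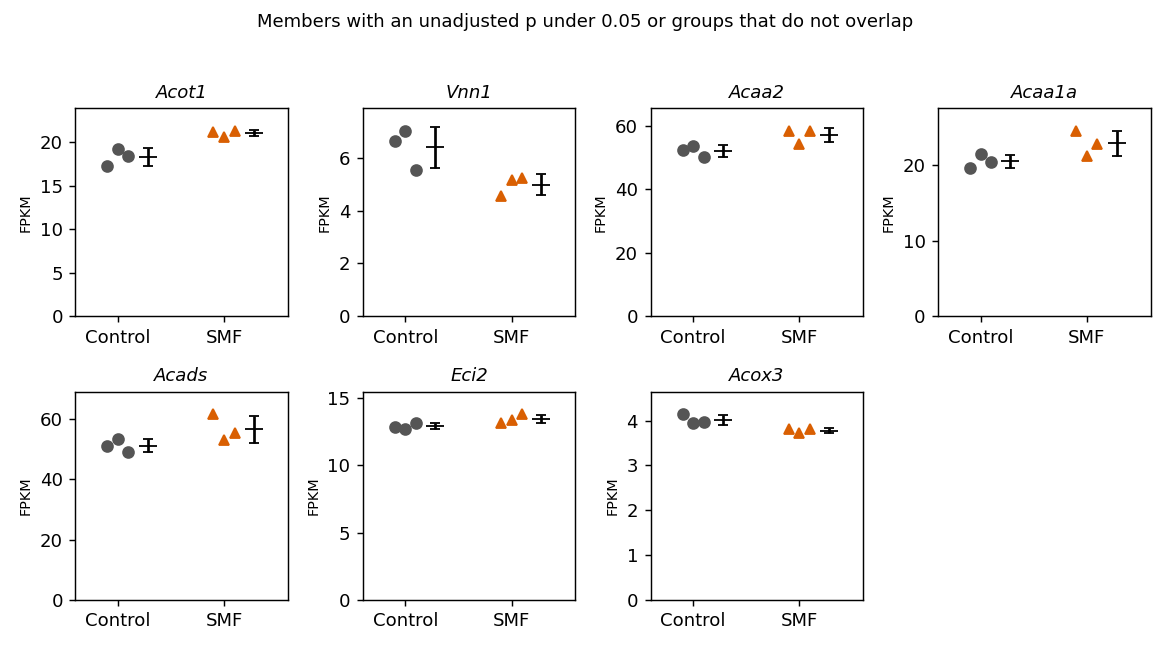
FPKM by library for the 7 members with an unadjusted p under 0.05 or with groups that do not overlap, with the mean and SD of each group beside the points and axes from 0. Acot1 and Acaa2 show all SMF points above all Control points and Vnn1 all below, and the Acads and Acaa1a groups overlap through SMF 2.

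**Figure D4:**
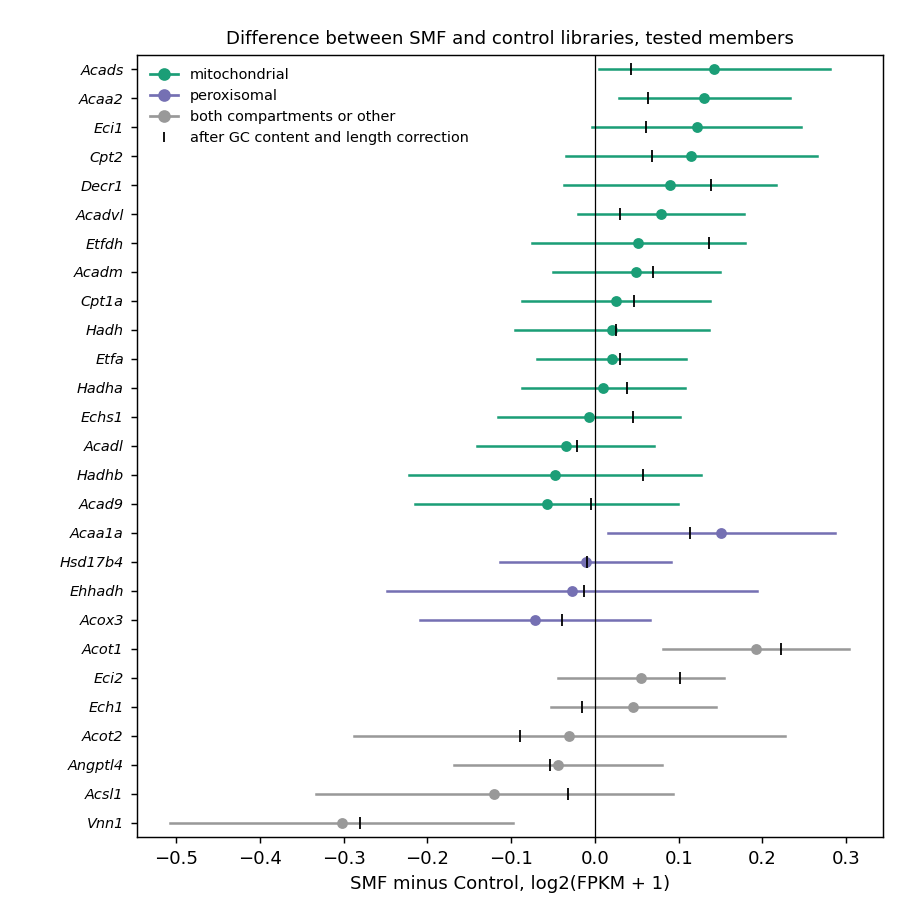
Difference between SMF and Control on the log2(FPKM + 1) scale for the 27 tested members, with 95% confidence intervals from limma and black ticks for the GC content and length correction. The points run from -0.30 (Vnn1) to 0.19 (Acot1), and the ticks of Acads and Acaa2 lie nearer 0, at 0.043 and 0.063.

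A further 101 genes of the same pathways were read beside the members, of which 93 were listed and 70 tested. Among these 70, limma called 0 in either direction and limma-voom 2 higher (Plin2 and Esrra) and 1 lower (Ep300), against 2.18% and 2.41% of all genes by limma-voom. At an unadjusted p under 0.05, 4 were higher (5.71%, against 9.41% of all genes) and 5 lower (7.14%, against 8.57%), and the median fold was 1.0e-05. The groups did not overlap, with SMF higher, for 6 (8.57%, against 11.0%) and, with SMF lower, for 5 (7.14%, against 12.7%). Of the 14 other mitochondrial oxidation genes tested, 9 were above 0 (64.3%, against 46.7% of all genes) and 5 below. Mlycd, which removes malonyl-CoA, the inhibitor of Cpt1a, was at 8.28, 8.13 and 8.01 FPKM in Control and 10.7, 9.36 and 9.88 FPKM in SMF. All SMF libraries were above all Control libraries (fold 0.26 ± 0.056, limma adjusted p = 0.147, 0.0521 by limma-voom, and 0.18 as the fold after the GC content and length correction). Acad8, a dehydrogenase of valine breakdown, was at 7.68 ± 0.574 FPKM in Control and 9.09 ± 0.309 in SMF (limma adjusted p = 0.171).

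The other peroxisomal oxidation genes split evenly, 8 above 0 and 8 below, with catalase (Cat) at 70.8 to 82.2 FPKM. Of the peroxins, which import the peroxisomal enzymes, all 16 were tested, 10 above 0 (62.5%, against 46.7% of all genes) and 6 below. Pex5, the receptor for imported enzymes, was at 33.3 to 36.4 FPKM. Pex2, part of its recycling complex, was at 32.85, 32.29 and 31.66 FPKM in Control and 30.16, 30.01 and 30.06 FPKM in SMF, with all SMF libraries lower and a limma adjusted p of 0.221. Acbd5, an acyl-CoA binding protein of the peroxisome membrane, was at 6.17 ± 0.30 FPKM in Control and 5.51 ± 0.0879 in SMF (limma adjusted p = 0.253).

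Of 8 tested further PPARA targets, 6 were above 0 (75.0%, against 46.7% of all genes) and 2 below. Plin2, which coats lipid droplets, was at 113, 117 and 111 FPKM in Control and 137, 126 and 128 FPKM in SMF, with all SMF libraries higher. Its fold was 0.19 ± 0.042, with an adjusted p of 0.147 by limma and 0.00938 by limma-voom. G0s2, an inhibitor of the lipase ATGL, was at 40.4 to 48.1 FPKM with overlapping groups.

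Of the 15 tested partners and coregulators, 3 were above 0 and 12 below. Esrra, a nuclear receptor of mitochondrial genes, was at 26.4, 30.1 and 28.4 FPKM in Control and 34.5, 30.3 and 33.5 FPKM in SMF, with SMF 2 just above Control 3. Its adjusted p was 0.188 by limma and 0.0322 by limma-voom. The acetyltransferase Ep300 was at 12.8 ± 0.371 FPKM in Control and 11.4 ± 0.659 in SMF, with an adjusted p of 0.209 by limma and 0.0422 by limma-voom. Med1, a Mediator subunit that binds nuclear receptors, and Lpin1, which acts with PPARA in mouse liver, had fold changes of -0.13 and -0.19 with limma adjusted p-values of 0.256 and 0.25. Ppargc1a, the inducible coactivator of the pathway, was low at 0.401 to 0.825 FPKM.

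Genes of these pathways that the cells lacked, under 0.1 FPKM in every library, comprised 2 members and 12 of the 93 further genes. The members were Pdk4 and Acaa1b. For ketone bodies, Oxct1, which uses them and is typically low in hepatocytes, was present at 33.9 to 35.2 FPKM and Acat1, a thiolase of both directions, at 18.5 to 20.9 FPKM. For uptake and lipolysis, Cd36, a fatty acid transporter, had 4 reads and Mgll, the monoacylglycerol lipase, 3. Of the omega-hydroxylases listed, Cyp4a12a had 1 read, Cyp4a32 had 4 and Cyp4a12b was listed at 0. The transcription factor Creb3l3 and the thioesterase Acot4 had 9 reads each, Cpt1c had 7, and Acot6, Abcd2 and Acsl6 were listed at 0 in all 6 libraries. Of these, Cpt1c and Acsl6 are chiefly brain forms.

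A further 11 genes were above 0.1 FPKM in some library but under 1 FPKM in all. Fgf21, the fasting hormone and PPARA target, was at 0 to 0.347 FPKM from 9 reads in all, and Pparg, the adipose paralogue of the receptor, had 10 reads. Bdh1, the last enzyme of ketogenesis, was at 0.232 to 0.73 FPKM and Cidec, a lipid droplet protein, at 0.38 to 0.90 FPKM. The others were Cpt1b, Acad12, Acacb, Hacl1, Ucp3, Ppargc1a and Ppargc1b. In Hacl1, 58.2% of the principal transcript lies in a same-strand locus, Gm49387, and its 20 reads are uncertain for that reason. Acot3, Slc27a2, Fabp1, Cyp4a31, Plin5, Cidea, Fabp3 and Rxrg matched no row and were not analysed here.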

How the data were processed

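Poly(A) RNA of AML12 cells was sequenced in 3 Control and 3 SMF libraries, grouped by their titles. The deposited values are FPKM calculated by the authors, with 23886 genes in each file. Bowtie2 2.2.3, HISAT2 2.1.0 and build GRCm39 are named, per the submitters' processing notes, without their roles. The counter, the annotation and the treatment of reads shared between loci were not given in the sources used here. No strand marking is stated, so overlapping genes cannot be told apart.

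GENCODE M21, on GRCm38, named 23529 identifiers and gave lengths, GC content and overlaps, and RefSeq tables on GRCm38.p6 gave promoters. Reads were recovered as FPKM times exon length times library total. Each library total was itself inferred, from the steps between low values of FPKM times exon length. Of 22004 genes above 0, 96.9% gave whole reads within 0.02 at the M21 exon length, and a search over lengths recovered the others. limma 3.58.1 in R 4.3.3 was fitted to log2(FPKM + 1) with a variance trend, on genes with at least 1 FPKM in at least 3 libraries, tested two-sided with Benjamini-Hochberg adjustment at 0.05. limma-voom on recovered reads called 510 genes. Levels per kilobase of principal transcript were added after seeing the data.

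The members and gene lists were chosen with earlier results of these data known. All members are named. Values by library are given for Ppara, Cpt1a, the highest of each role, related pairs, and members with an unadjusted p under 0.05 or groups apart. Pathway genes are named at an unadjusted p under 0.05, when highest, or when lacking (under 0.1 FPKM everywhere). The pathway genes under 1 FPKM, beyond the lacking ones, were chosen after their values were seen. Some genes of the lists are counted but not reported here by name. The alternatives were other pseudocounts, filters, scalings, a GC content and length correction (loess, span 0.3), a block on replicate number and leaving out each library. The block compares only the libraries numbered 2 and 3, since numbers 1 and 4 each occur in 1 group. No libraries were duplicates, as within groups the chi-square per gene was 3.33 to 6.32.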

Additional observations from a re-analysis of the deposited data

How the results depend on the processing

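No member passed under any alternative of limma on FPKM. By limma-voom 1 member, Acot1, was higher and 0 lower, against 2.18% and 2.41% of all genes tested. Over all genes, calls were 0 as reported, 6 higher and 2 lower with a filter at 5 FPKM, and 242 and 268 by limma-voom. Leaving out 1 library gave 0 to 2 higher and 0 to 1 lower, and 0 members each time. The median fold of mitochondrial members, 0.037 as reported, was 0.0051 as TPM, and 0.036 to 0.045 with 1 library left out. That of peroxisomal members, -0.019 as reported, was 0.070 with the filter at 5 FPKM (fewer members tested), -0.055 as TPM, and -0.035 to 0.0011 with 1 library left out, above 0 only without Control 3. The summed ratio was 5.90 in Control and 5.87 in SMF per kilobase of principal transcript, and 6.17 to 6.24 and 6.25 to 6.36 with 1 library left out. Control and SMF share the numbers 2 and 3 only, and their deviations correlated at 0.058 and 0.046, so the numbers were not taken as pairs. A replicate block was fitted only as an alternative. Number 1 occurs only in SMF and number 4 only in Control, so the block fold rests on the libraries numbered 2 and 3 alone. With the replicate block 0 members and, over all genes, 13 higher and 6 lower passed. The fold was then -0.021 for Hadha, -0.016 for Hadh, -0.0092 for Ech1 and 0.0046 for Hsd17b4.

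Of 454 member folds under 17 alternatives, 423 kept direction and side of the threshold and 30 changed sign, in 10 members; the cause was not tested. As TPM, Cpt1a read -0.0075, Hadha -0.023, Hadh -0.012 and Etfa -0.013. After quantile normalization Hadha read -0.0014, Hadh -0.0011, Etfa -0.021 and Ech1 -0.0011. With the GC content and length correction Hadhb read 0.058, Echs1 0.046 and Ech1 -0.015. Median-of-ratios scaling gave 0.0023 for Echs1. With 1 library left out, folds ran from -0.013 to 0.058 for Cpt1a, -0.012 to 0.029 for Hadha, -0.10 to 0.0049 for Hadhb, -0.017 to 0.057 for Hadh, -0.038 to 0.017 for Echs1, -0.0070 to 0.039 for Etfa, -0.065 to 0.032 for Ehhadh, -0.044 to 0.017 for Hsd17b4 and -0.11 to 0.052 for Acot2. Depth limits the low genes, and the floor of 3 reads a library covers counting error only.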

Other observations

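Overlap with other loci was also counted over all listed protein-coding genes. Of 359 listed protein-coding genes with over 50% of their exon bases inside other genes, 64.3% stayed under 1 FPKM in all 6 libraries, against 32.4% of the 15004 other listed protein-coding genes. The overlaps counted were on either strand and with any type of gene. Whether overlap lowers a level, that of Etfb included, was not tested.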
